A study of Spodoptera frugiperda with 12 samples.

Results

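NC_049740.1 and NC_049738.1 are 2 of the 32 sequences with names in NC_0497 in the deposited m6A peak lists of *Spodoptera frugiperda* embryos. These 32 hold 96.8% of the listed peaks, and the rest lie on other sequences. They were chosen because, of the 31 such sequences with enough loci to rank, they had the smallest shares of loci with peaks at 24 h only. All their peaks were taken, 4968 on NC_049740.1 and 3643 on NC_049738.1, together 8611 of the 331440 peaks of the 6 lists on all sequences (2.60%). These peaks fell into 762 of 17120 loci on all sequences, a locus being a run of peaks on 1 strand with gaps under 2000 bases.

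The study compared whole embryos of the fall armyworm, a noctuid moth reared in the laboratory on an artificial diet, collected at 24 h or at 2 h after oviposition. Embryos of both times had no treatment beyond collection, and many embryos went into a collection. Each time has 3 samples captured with an antibody against m6A, each with its own peak list, and 3 uncaptured input samples, which were not analysed here. Whether the 3 samples of a time are separate collections of eggs is not stated, so a p-value reflects only how much these lists vary, and that may be technical variation. The lists hold positions, a score and a strand but no read counts. The depth of each peak is therefore unknown, and where no peak is listed the RNA itself may have been too scarce to detect. Positions are counted from 1 on the sequence names of the lists, whose genome build the sources used here do not give, and genes, exons and introns at these positions were not analysed here.

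N6-methyladenosine (m6A) is a methyl mark that a methyltransferase complex places on adenosines inside messenger RNA. Proteins with a YTH domain read it and can change the splicing, translation or decay of the RNA that carries it. The earliest embryo runs on RNA that the mother loaded into the egg, which is later cleared while the embryo starts to transcribe its own genome, and in zebrafish m6A is known to take part in that clearance.

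The low share of 24 h-only loci that singles out these sequences held over all peaks but not among the stronger peaks. A locus was called 24 h-only when all 3 lists of 24 h had a peak there and no list of 2 h did, and the share was taken of 24 h-only loci plus loci with peaks in all 6 lists. NC_049740.1 had 8 of 188 (4.26%, exact binomial 95% interval 1.85% to 8.21%) and NC_049738.1 had 9 of 133 (6.77%, 3.14% to 12.5%), against 1209 of 9559 on the other 30 NC_0497 sequences (12.6%, 12.0% to 13.3%). Just outside the choice stood NC_049721.1 with 29 of 409 (7.09%) and NC_049726.1 with 28 of 375 (7.47%), whose values lie inside the interval of NC_049738.1. These intervals cover counting error only, and since the shares chose the sequences they are given without a test.

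Among the 50% of peaks with the higher scores in each list, NC_049740.1 had 14 of 75 loci 24 h-only (18.7%) and NC_049738.1 had 7 of 47 (14.9%). Together that is 21 of 122 (17.2%, interval 11.0% to 25.1%), against 931 of 6491 on the other sequences (14.3%, 13.5% to 15.2%), so both sequences then stood above the others' share. Counted from the lowest of the 31 sequences, NC_049740.1 was rank 26 and NC_049738.1 rank 17. The denominators shrank more on the chosen sequences, since loci with peaks in all 6 lists numbered 101 of the stronger peaks against 304 of all peaks there, and 5560 against 8350 on the other sequences. A locus called 24 h-only after this cut may still hold weaker 2 h peaks, which the cut left out. Of the 17 loci called so over all peaks, 2 had a peak in the stronger 50% of every 24 h list. On the other sequences this was not counted. With the stronger 50% taken within each sequence's own peaks, the 2 sequences together had 21 of 186 (11.3%, interval 7.13% to 16.7%), against 14.5% on the others. With all peaks but presence asked of at least 2 of 3 lists of 24 h, the share was 15.8% against 19.4%, a narrower gap than over 3 of 3. Only the 24 h-only class was loosened there, while the loci it was set against still had peaks in all 6 lists. The sequences are therefore called here by their names, and "poor in 24 h-only loci" describes their full lists, not the stronger 50% of each list.

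**Figure D1:**
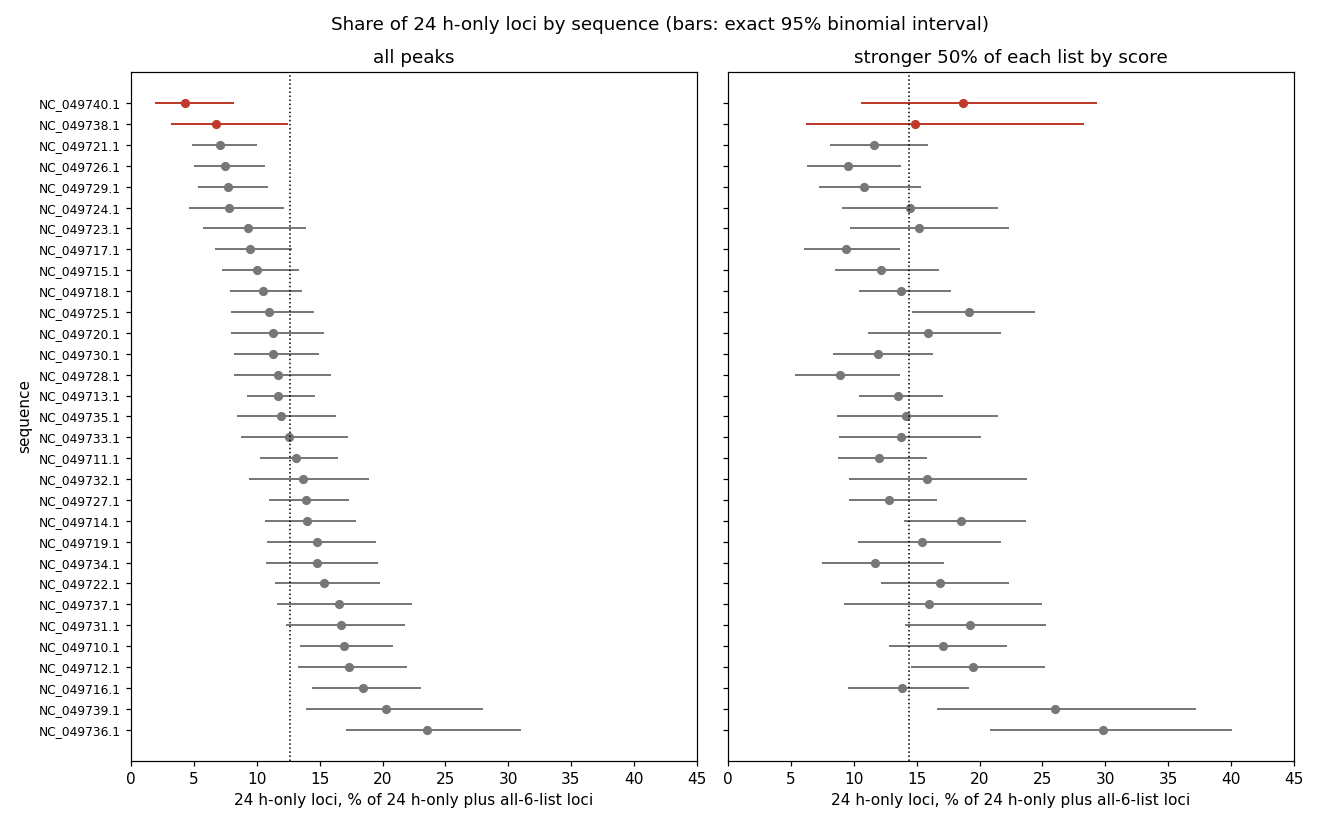
Share of 24 h-only loci (percent of 24 h-only plus all-6-list loci, horizontal axis) on each of 31 sequences, with all peaks on the left and the stronger 50% of each list on the right. Points are shares, bars exact 95% binomial intervals, the dotted line the share on the other NC_0497 sequences together (12.6% on the left, 14.3% on the right). NC_049740.1 and NC_049738.1, in red at the top, are lowest on the left at 4.26% and 6.77% and lie at 18.7% and 14.9% on the right.

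Of the loci of the 2 sequences 39.9% had peaks in all 6 lists, against 52.5% on the other sequences. Of the 762 loci, 17 (2.23%) were 24 h-only, where 7.31% of all loci in the series were, and 4 (0.525%) were 2 h-only, where 0.561% of all loci were. The first of these counts is what the sequences were chosen on. Leaving out a list asks for 1 presence fewer, and the 24 h-only loci then numbered 29, 33 and 36 without 24 h replicates 1, 2 and 3, and 26 without 2 h replicate 2. On the other sequences the 24 h-only loci rose as well, from 1209 to 1501, 1509, 1639 and 1357 in the same settings. Loci with any 24 h peak and no 2 h peak were about as common as elsewhere, 184 or 24.1% against 24.8% on the other sequences. How many of these were in every 24 h list is the count the choice used. Loci with any 2 h peak and no 24 h peak numbered 74 (9.71%), against 4.49% on the other sequences.

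A peak in 1 list alone made up 180 of the 762 loci (23.6%), against 15.1% of loci on the other sequences. NC_049738.1 had the highest such share of the 31 sequences, 28.1%, and NC_049740.1 rank 4 from the highest, 19.5%. Loci with peaks in all 6 lists made up 45.6% on NC_049740.1 and 33.8% on NC_049738.1, the lowest of the 31, against 52.5% elsewhere. Sequences that were not chosen came close, with 34.1% on NC_049737.1 and 35.5% on NC_049735.1. Of the loci of NC_049737.1, 23.9% had a peak in 1 list alone. Loci as such were not scarce: NC_049740.1 carried 48.1 per megabase, rank 2 from the highest of the 31, and NC_049738.1 35.7, against 35.0 on the other sequences.

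**Figure D2:**
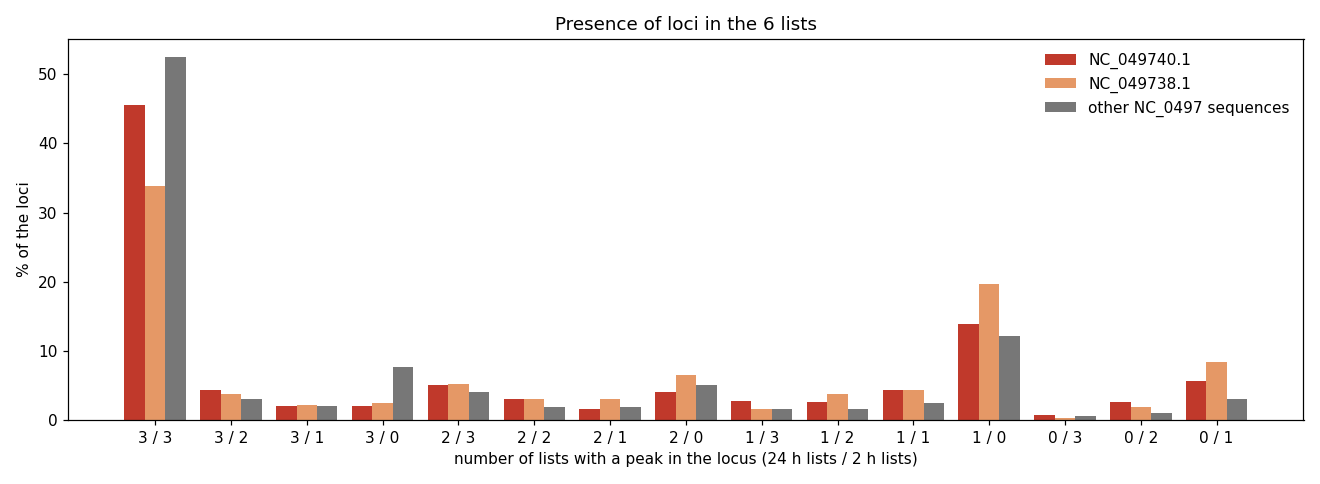
Percent of loci (vertical axis) by the number of 24 h lists and of 2 h lists with a peak in the locus (horizontal axis), for NC_049740.1 (395 loci), NC_049738.1 (367) and the other NC_0497 sequences (15904). The 24 h-only class, 3 / 0, is smaller on the 2 sequences than elsewhere, and the class with 1 list of 24 h and none of 2 h is larger on both.

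The 4 loci of 2 h only all lay on the plus strand and were built of weak peaks. The 92 on the other sequences, whose strands were not counted, were weak too. The median percentile of the strongest peak in the weakest list was 8.63 on the 2 sequences and 15.2 elsewhere. The 4 held more peaks, 2.17 against 1.24 per locus and list, and were longer, with median spans of 2377.5 and 275 bases. On NC_049738.1 the only one spanned 8814506 to 8815187 with 1 peak in each 2 h list, whose scores stood at percentiles 11.9, 13.3 and 5.88 of their lists. On NC_049740.1 the locus at 1240081 to 1242147 had 2, 1 and 1 peaks at 2 h, with strongest peaks at percentiles 28.2, 5.93 and 9.26. Each of these peaks was thus in the lower part of its list's scores.

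The locus at 6634241 to 6636928 of NC_049740.1 had 3, 4 and 3 peaks in the 2 h lists, the strongest at percentiles 11.3, 23.7 and 19.4. The locus at 7146141 to 7154214 of NC_049740.1 had 3, 4 and 2 peaks, the strongest at percentiles 22.9, 33.1 and 24.0. Both were thus richer in peaks than the other two, and still none of the 4 had a peak in the stronger 50% of a list. The nearest same-strand loci with 24 h peaks were 2087, 2738, 4231 and 8008 bases away. When peaks were joined under 10000 bases, 0 loci of 2 h only were left on either sequence, against 24 on the others. They numbered 13, 10 and 10 when 24 h replicates 1, 2 and 3 were left out in turn, 14 without 2 h replicate 1 and 10 without 2 h replicate 3. In the same settings those of the other sequences rose from 92 to 203, 178, 172, 144 and 167.

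The 17 loci of 24 h only lay on both strands, 8 plus and 9 minus, and 5 had any peak in the stronger 50% of a list. They held 1.76 peaks per locus and list, against 3.20 in the 24 h-only loci of the other sequences, and the median percentile of the strongest peak in their weakest list was 10.8, against 34.9. In 6 of the 17 (35.3%), every 24 h list had exactly 1 peak, against 18.0% of the 24 h-only loci of the other sequences. Distances to the nearest same-strand locus with 2 h peaks ran from 2628 to 123187 bases with a median of 22723, and 7 were under 10000. None overlapped a locus of the opposite strand.

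Of these 17 loci, 2 had a peak in the stronger 50% of every 24 h list. Such loci were not counted on the other sequences, where the median percentile in the weakest list, 34.9, is also below 50. On NC_049738.1 the minus-strand locus at 9817080 to 9827134 had 6, 8 and 5 peaks in the 24 h lists and none in the 2 h lists, with strongest peaks at percentiles 71.1, 76.8 and 70.6. It lay 59133 bases from the nearest minus-strand locus with 2 h peaks and was the only one of the 17 with at least 5 peaks in every 24 h list. Of the 24 h-only loci on the other sequences, 13.4% had that many. On NC_049740.1 the plus-strand locus at 1201264 to 1203013 had 2, 3 and 3 peaks at percentiles 71.9, 52.3 and 55.0, and none at 2 h, with 22723 bases to the nearest such locus.

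The other named 24 h-only loci had fewer peaks in their poorest list. Those of NC_049738.1 were on the plus strand at 911181 to 915881 (3, 3 and 1 peaks), 2238779 to 2240481 (1, 1 and 2), 4949767 to 4952208 (1, 1 and 1) and 5031624 to 5031923 (1, 2 and 2). Those of NC_049740.1 lay on the minus strand at 3019738 to 3022460 (1, 2 and 1 peaks), 3807714 to 3807863 (1, 1 and 1) and 4601935 to 4608803 (1, 1 and 2), and on the plus strand at 4950270 to 4952273 (1, 1 and 1). In none of these 8 did a peak reach the stronger 50% of its list.

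The 304 loci with peaks in all 6 lists carried most of the peaks at both times, 76.9% ± 0.249 of peaks in the 24 h lists and 82.2% ± 1.88 in the 2 h lists (SD, n = 3 lists), against 83.2% and 93.3% on the other sequences. Their mean peak number was higher at 24 h in 114, lower in 138 and equal in 52. Every 24 h list exceeded every 2 h list in 11 loci (3.62%), where 4.90% of all such loci in the series did, and every 24 h list was below every 2 h list in 20 (6.58%), where 7.72% did. NC_049740.1 held 5 of the 11 and 15 of the 20, and NC_049738.1 held 6 of the 11 and 5 of the 20.

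Among loci shared by all lists the one richest in its poorest list was on the plus strand of NC_049738.1 at 1041617 to 1096596, a run of 54980 bases with 16, 16 and 15 peaks at 24 h and 17, 19 and 16 at 2 h. The minus-strand loci of that sequence at 9135928 to 9139791 and 10323283 to 10336471 had 12, 11, 12 and 15, 12, 8 peaks at 24 h, and 9, 12, 8 and 9, 13, 12 at 2 h. In all of these the 24 h and 2 h lists overlapped in peak number.

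On NC_049740.1 the plus-strand locus at 994418 to 998186 had 9, 9 and 10 peaks at 24 h and 12, 12 and 11 at 2 h, and every 24 h list was below every 2 h list. Its strongest peaks stood at percentiles 73.4, 89.5 and 85.0 at 24 h and 96.2, 96.6 and 96.3 at 2 h, again without overlap. The plus-strand locus at 5476609 to 5485415 had 9, 11 and 12 peaks at 24 h and 9, 11 and 9 at 2 h, which overlap.

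Within NC_049740.1 the largest losses in peak number at 24 h were at 7698773 to 7709171, with 12, 9 and 10 peaks at 24 h and 16, 20 and 16 at 2 h, and at 2435712 to 2447833, with 9, 5 and 8 at 24 h and 10, 15 and 11 at 2 h, both on the minus strand. Within NC_049738.1 the largest were on the plus strand, at 8087505 to 8095795 with 7, 6 and 5 peaks at 24 h and 12, 13 and 10 at 2 h, and at 3015750 to 3029722 with 4, 4 and 5 at 24 h and 7, 11 and 8 at 2 h. In each of these 4 loci all 24 h lists were below all 2 h lists. They were picked for that difference, so the values are a description.

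The largest gains at 24 h on NC_049738.1 were on the plus strand, at 1940372 to 1944296 with 4, 6 and 8 peaks at 24 h and 1, 3 and 1 at 2 h, and at 8031594 to 8040107 with 8, 18 and 10 at 24 h and 8, 8 and 7 at 2 h. On NC_049740.1 the minus-strand locus at 8237131 to 8239437 had 4, 3 and 4 peaks at 24 h and 2, 1 and 1 at 2 h, and the plus-strand locus at 3206330 to 3229201 had 6, 10 and 9 at 24 h and 8, 4 and 7 at 2 h. Groups did not overlap at 1940372 and 8237131, touched at 8 peaks at 8031594, and overlapped at 3206330.

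Peak numbers on the 2 sequences were close at the 2 times. NC_049740.1 had 848, 807 and 783 peaks in the 24 h lists and 833, 928 and 769 in the 2 h lists. NC_049738.1 had 638, 649 and 599 in the 24 h lists and 605, 625 and 527 in the 2 h lists. The ranges of the 2 times overlapped on both sequences, while on the other sequences every 24 h list, at 53507 to 54886 peaks, exceeded every 2 h list, at 48159 to 51730.

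In means, NC_049740.1 had 3.64% fewer peaks at 24 h than at 2 h, with a percent change of -3.64 that was the lowest of the 31 sequences. The lowest among the others was -0.0287%. The 2 h lists of NC_049740.1 ran from 769 to 928 peaks, a range that holds all its 24 h lists. Its rank compares 24 h with 2 h, the contrast that chose the sequences, so it is a description only. NC_049738.1 had 7.34% more at 24 h, close to the 7.96% of the other sequences together and ranked 14 from the lowest.

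Per megabase of the stretch between its first and last listed peak, NC_049740.1 (8.21 megabases, 175534 to 8388348) had 103, 98.3 and 95.3 peaks at 24 h and 101, 113 and 93.6 at 2 h. NC_049738.1 (10.3 megabases, 82974 to 10358246) had 62.1, 63.2 and 58.3 at 24 h and 58.9, 60.8 and 51.3 at 2 h, the lowest density of the 31 sequences. The 2 sequences thus differ from each other more in density than either does between times. Together they had 77.6 ± 4.78 peaks per megabase over the 6 lists and the other sequences 114 ± 5.51, a difference of -36.7 ± 5.15 (SD, n = 6) with the same sign in 6 of 6 lists. An exact two-sided sign-flip test over the lists gave p = 0.03125, the smallest that 6 lists allow, and an adjusted p of 0.0375 by Benjamini-Hochberg over the 6 measures compared. This p says how far the lists agree, not whether 2 sequences differ from others beyond the spread between sequences. The low density was not particular to both: NC_049740.1, at 101, ranked 14 from the lowest, with a median of 108 among the 29 other ranked sequences.

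**Figure D3:**
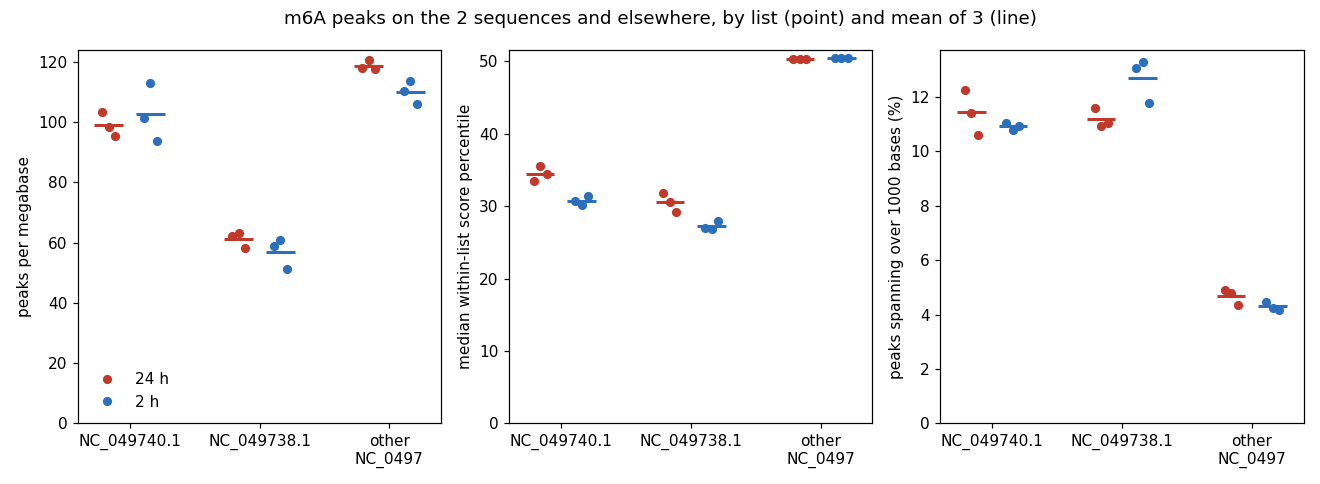
Peaks per megabase, median score percentile within a list and percent of peaks spanning over 1000 bases on NC_049740.1, NC_049738.1 and the other NC_0497 sequences, with 1 point per list (24 h red, 2 h blue) and a line at the mean of 3. Percentiles on the 2 sequences lie between 26.8 and 35.6 in every list, below the 50.3 to 50.4 of the others, and shares of long peaks between 10.6% and 13.3%, above the 4.17% to 4.89% of the others.

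Peaks on both sequences scored low. The authors gave each peak a score on a scale the lists do not state, so each peak was ranked within its list and given a percentile. On NC_049740.1 the median percentile was 33.4, 35.6 and 34.4 in the 24 h lists and 30.7, 30.1 and 31.4 in the 2 h lists, and on NC_049738.1 it was 31.7, 30.6 and 29.2 at 24 h and 27.0, 26.8 and 28.0 at 2 h. On both sequences every 24 h list was above every 2 h list, by 3.73 points in means on NC_049740.1 and 3.24 on NC_049738.1.

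Over 6 lists the median percentile on the 2 sequences was 30.9 ± 1.77, against 50.4 ± 0.0606 on the others, a difference of -19.4 ± 1.82 points (SD, n = 6; exact sign-flip p = 0.03125, adjusted p = 0.0375, lower in 6 of 6 lists). The other sequences hold nearly all peaks of a list, which keeps their median near the middle by construction. Of the 31 sequences NC_049738.1 ranked lowest and NC_049740.1 ranked 3 from the lowest, with NC_049735.1, which is not one of the chosen sequences, between them at 31.6. Above percentile 90 lay 4.01% ± 0.530 of the sequences' peaks at 24 h and 3.20% ± 0.156 at 2 h (SD, n = 3 lists), against 10.1% at each time on the others. Within loci present in all 6 lists the median percentile was 38.7 at 24 h and 34.3 at 2 h, against 55.2 and 53.0 on the other sequences, so the low scores were not limited to loci seen in few lists.

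A score listed as infinite, the top of the scale, was rare there. NC_049738.1 had 5, 2 and 2 such peaks in the 24 h lists and none in any 2 h list, and NC_049740.1 had 3, 2 and 3 at 24 h and 4, 4 and 2 at 2 h. In share of peaks they ranked 1 (0.238%) and 2 (0.359%) from the lowest of the 31 sequences, where the lowest other had 0.543% and the median other 1.07%.

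The places of these peaks were few. On the plus strand of NC_049738.1 the regions at 9406080 to 9407354 and 9411008 to 9411779 had infinite scores in all 3 lists of 24 h, while their 2 h peaks stood at percentiles 95.9, 96.6 and 96.3 and at 97.7, 97.7 and 97.9. On the plus strand of NC_049740.1 the region at 6123490 to 6125243 was infinite in all 24 h lists with 2 h percentiles of 63.8, 62.1 and 73.9. At 7044293 to 7044617 of that strand the scores were infinite in all 2 h lists, with 24 h percentiles of 89.8, 81.6 and 90.2. The region at 6160582 to 6160748 was infinite in all 6 lists. The first 3 of these regions were thus stronger in rank at 24 h and the one at 7044293 at 2 h, and all were part of loci found in all 6 lists.

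Long peaks were frequent on both sequences. Peaks spanning over 1000 genomic bases made up 12.3%, 11.4% and 10.6% of peaks on NC_049740.1 at 24 h and 11.0%, 10.8% and 10.9% at 2 h. On NC_049738.1 they made up 11.6%, 10.9% and 11.0% at 24 h and 13.1%, 13.3% and 11.8% at 2 h. The times overlapped on NC_049740.1 and did not on NC_049738.1, where the 24 h lists were lower. Together the sequences had 11.5% ± 0.474 and the others 4.49% ± 0.291, a ratio of 2.56 and a difference of 7.00 ± 0.474 points (SD, n = 6; exact sign-flip p = 0.03125, adjusted p = 0.0375, higher in 6 of 6 lists). NC_049738.1 (11.9%) and NC_049740.1 (11.2%) had the highest values of the 31 sequences, and the next had 9.64%.

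The excess lay in spans of 1001 to 10000 bases, with 8.06 ± 0.776 such peaks per megabase on the 2 sequences and 4.14 ± 0.336 on the others, while spans over 10000 bases numbered 0.865 ± 0.0765 and 1.00 ± 0.212. Short peaks were fewer there, as peaks of up to 25 bases numbered 19.8 ± 1.32 per megabase against 34.1 ± 1.22, and those of 76 to 200 bases 10.4 ± 1.50 against 20.5 ± 1.08. Spans are genomic, so a long one may bridge an intron, which was not analysed here. Peaks over 10000 bases averaged 16.3 per list at 24 h and 15.7 at 2 h on the 2 sequences, against 537 and 372 on the others.

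The low scores ran through the span classes up to 10000 bases. Peaks of up to 25 bases had a median percentile of 15.7 ± 2.90 on the 2 sequences and 35.0 ± 3.01 on the others, and those of 76 to 200 bases 59.5 ± 5.85 and 71.5 ± 3.22. The gap was widest for spans of 201 to 1000 bases, at 40.8 ± 1.59 against 71.3 ± 2.84, and remained for 1001 to 10000 bases, at 42.3 ± 3.84 against 61.4 ± 2.59 (SD, n = 6 lists). Above 10000 bases the values were 55.9 ± 10.9 and 63.8 ± 2.26, within the spread between lists on the 2 sequences.

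**Figure D4:**
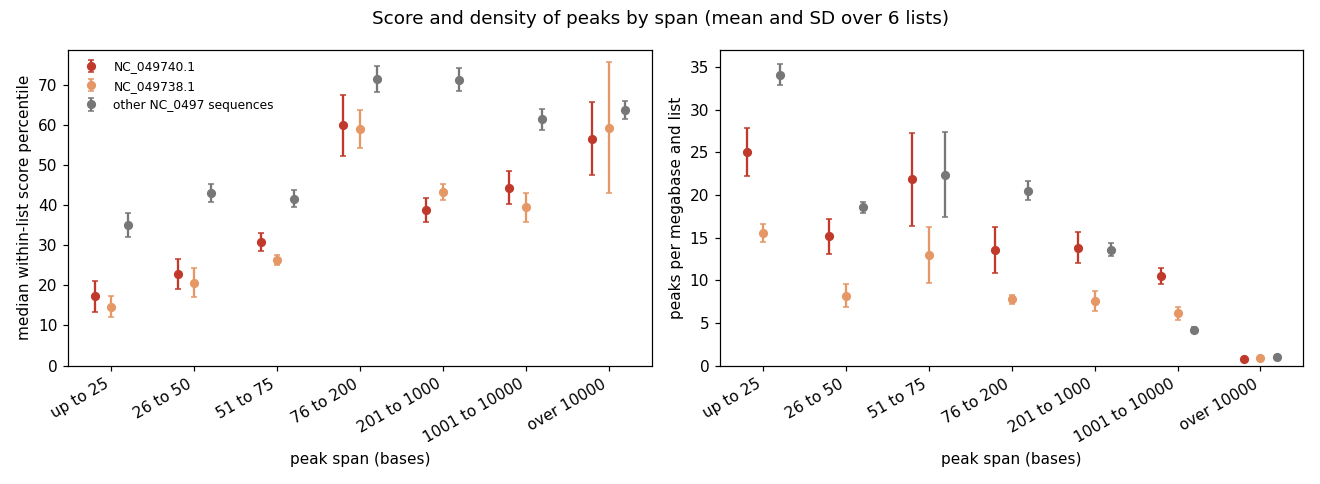
Median score percentile within a list (left) and peaks per megabase and list (right) by peak span in bases, as mean and SD over 6 lists, for NC_049740.1, NC_049738.1 and the other NC_0497 sequences. Scores on both sequences are below the others in every class up to 10000 bases, and only the class of 1001 to 10000 bases is denser on both sequences (10.5 and 6.13 per megabase) than on the others (4.14).

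Peaks of exactly 75 bases were somewhat more frequent on the 2 sequences, at 28.6%, 25.2% and 22.6% in the 24 h lists and 17.8%, 18.5% and 16.0% in the 2 h lists. The others averaged 22.0% at 24 h and 16.0% at 2 h, so both sets of sequences had the larger share at 24 h. Over 6 lists the 2 sequences had 21.4% ± 4.87 and the others 19.0% ± 3.52, a difference of 2.44 ± 1.50 points (SD, n = 6; exact sign-flip p = 0.03125, adjusted p = 0.0375, higher in 6 of 6 lists). Counted from the highest of the 31 sequences, NC_049738.1 ranked 5 and NC_049740.1 ranked 6, and the highest value on a sequence not chosen was 22.1%. Among the stronger 50% of peaks the difference was -1.60 points, and the direction turned.

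Shared loci of the 2 sequences were poorer in peaks. They held 3.75, 3.69 and 3.49 peaks per locus in the 24 h lists and 3.84, 4.14 and 3.60 in the 2 h lists, with overlap between the times, against 5.29 to 5.44 at 24 h and 5.44 to 5.74 at 2 h on the others. The difference from the others was -1.73 ± 0.143 peaks (SD, n = 6; exact sign-flip p = 0.03125, adjusted p = 0.0375, lower in 6 of 6 lists). Counted from the lowest of the 31 sequences, NC_049740.1 ranked 2 and NC_049738.1 ranked 3, both at 3.75 over the 6 lists, above NC_049735.1 at 3.50. The median span of their shared loci was 4642 bases against 3659.

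Along shared loci longer than 1000 bases cut into 10 equal parts, the peaks gathered in the 3′-most part in both sets. That part held 25.4% ± 1.01 of peaks on the 2 sequences and 25.1% ± 0.529 on the others, a difference of 0.355 ± 1.16 points that did not pass the test (exact sign-flip p = 0.5, adjusted p = 0.5, higher in 4 of 6 lists). The 5′-most part held 14.6% ± 0.911 and 12.7% ± 0.242 (SD, n = 6).

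Lists overlapped less on the 2 sequences than on the others as a whole. The Jaccard index, the bases shared by 2 lists over the bases covered by either, averaged 0.290 over the 3 pairs of 24 h lists (0.260 to 0.319), 0.428 over the 3 pairs of 2 h lists (0.404 to 0.474) and 0.285 over the 9 pairs between times (0.234 to 0.394). On the other sequences the means were 0.383, 0.537 and 0.341. Counted from the lowest of the 31 sequences, NC_049738.1 ranked 2 in 24 h pairs, 2 in 2 h pairs and 12 between times, and NC_049740.1 ranked 7, 8 and 6, so other sequences had lower values. Averaged over both times, pairs within a time thus exceeded pairs between times by 0.0746 on the 2 sequences and by 0.119 on the others. On the 2 sequences this lay mostly in the 2 h pairs, since 24 h pairs stood at 0.290 and pairs between times at 0.285. On NC_049738.1 the pair of 24 h replicate 3 with 2 h replicate 3 had the highest index of all 15 pairs, 0.525, although 40.0% of peaks overlapped there, against 49.3% to 50.2% in pairs of 2 h lists.

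Counting peaks that another list covers over 50% or more of their span, the 2 sequences had 37.0% in 24 h pairs, 52.1% in 2 h pairs and 38.8% between times, against 48.4%, 62.7% and 48.3% on the others. By both measures the ranges of 24 h pairs and of pairs between times overlapped on the 2 sequences. In the stronger 50% of peaks the index on the 2 sequences was above that on the others by 0.0039 in 2 h pairs and by 0.0156 between times. In 24 h pairs it stayed lower there, at 0.366 against 0.455.

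Peaks merged across lists where they overlapped by at least 1 base on 1 strand gave 3455 regions on the 2 sequences. Of these, 1765 (51.1%) came from 1 list and 329 (9.52%) from all 6, against 44.4% and 15.8% elsewhere. Regions of 24 h only numbered 34 (0.984%), where 2.30% of all regions were, and those of 2 h only 51 (1.48%), where 1.66% were. NC_049740.1 had 18 of 24 h only and 36 of 2 h only, and NC_049738.1 had 16 and 15. Of the 2 h-only regions 37 (72.5%) lay inside loci with peaks in all 6 lists, against 87.6% on the others, and of the 24 h-only regions 16 (47.1%), against 33.8%.

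Peaks were unevenly spread along both sequences, and NC_049740.1 had no listed peak from 1304739 to 2435711, a gap of 1131 kilobases. When each peak-bearing stretch was cut into 10 equal parts, 3 parts of NC_049740.1 had fewer peaks in every 24 h list than in any 2 h list. Part 2 held 41, 34 and 40 at 24 h and 47, 47 and 50 at 2 h. Part 3 held 24, 24 and 23 at 24 h and 38, 38 and 31 at 2 h, and part 9 held 89, 88 and 89 at 24 h and 119, 124 and 95 at 2 h.

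NC_049738.1 had no listed peak from 4169504 to 4791250, and there parts 4 and 10 had more peaks in every 24 h list. Part 4 held 30, 22 and 20 at 24 h and 17, 19 and 14 at 2 h. Part 10, which holds 3 of the 9 24 h-only loci of that sequence, held 109, 117 and 100 at 24 h and 87, 81 and 72 at 2 h. No part of NC_049738.1 had every 24 h list below every 2 h list, and no part of NC_049740.1 had every one above. With 3 lists per time, some parts can separate in this way without any difference between the times. The other sequences were not cut into parts, so the share of such parts elsewhere is unknown, and no part was tested.

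**Figure D5:**
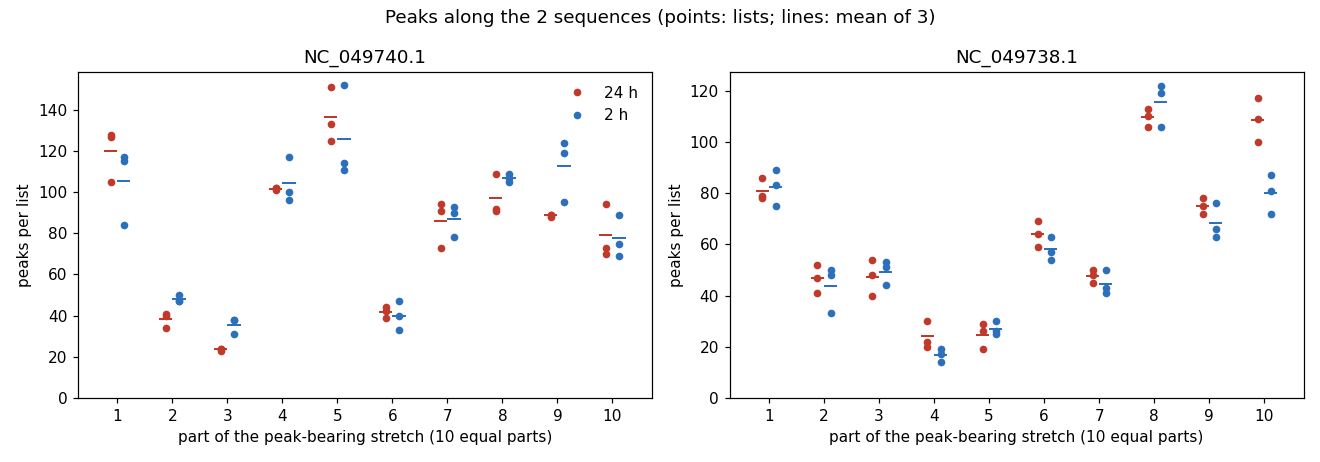
Peaks per list (vertical axis) in each of 10 equal parts of the stretch between the first and last listed peak of NC_049740.1 (left) and NC_049738.1 (right), with 1 point per list (24 h red, 2 h blue) and a line at the mean of 3. The 24 h lists are below the 2 h lists without overlap in parts 2, 3 and 9 of NC_049740.1 and above them in parts 4 and 10 of NC_049738.1.

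Set beside NC_049736.1 and NC_049739.1, which hold a similar number of peaks (8755) but the largest shares of 24 h-only loci (22.0% together), the chosen sequences had a like peak density, 77.6 ± 4.78 against 73.9 ± 7.45 per megabase over 6 lists. Their median percentile was 30.9 ± 1.77 against 39.3 ± 1.59, and their share of peaks over 1000 bases 11.5% ± 0.474 against 6.72% ± 0.811 (SD, n = 6). Peaks of infinite score made up 0.311% ± 0.130 against 1.73% ± 0.300. A pair picked from the opposite end of the same ranking is a description, and these differences were not tested.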

How the data were processed

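Messenger RNA fragments were captured with an m6A antibody, and each capture sample has 1 peak list. The submitters' processing notes name HOMER, HISAT2 2.1.0, Bowtie2 2.2.5 and fastp 0.20.0, without roles. The peak caller, threshold and build were not given in the sources used here. Scores were deposited by the authors, 1 per peak, and served only as ranks within a list. No genome of the lists' sequence names was used here, so no sequence is printed.

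The 2 sequences and the named loci were chosen with earlier results of these data known. Named were all 2 h-only loci and, per sequence, the 5 24 h-only and 3 shared loci richest in peaks in their poorest list and the 2 shared loci each with the largest gain and loss. Differences between sequences were tested within lists by exact sign-flip tests. Comparisons of 24 h with 2 h chose the sequences and have no test. Same-numbered lists did not deviate together (correlations from -0.0579 to 0.0193 over 304 loci), so replicate numbers were not used as pairs. Alternatives were the stronger 50% of peaks, lists of equal length (51157 peaks), other spans and joining distances, presence in 2 of 3 lists, strand ignored, each list left out and each sequence alone. Scripts were tested on simulated data and ran on matplotlib 3.10.9, scipy 1.17.1, pandas 2.3.3, numpy 2.4.6 and Python 3.11.15.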

Additional observations from a re-analysis of the deposited data

Results flagged for a closer look

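The median score percentile was higher at 24 h than at 2 h in every list of the 2 sequences together (by 3.13 points), of NC_049740.1 (3.73) and of NC_049738.1 (3.24), while on the other sequences every 24 h list was below every 2 h list (-0.101 points on average). The others' median is held near the middle of a list by their number, and NC_049736.1 and NC_049739.1 together, at 39.4 to 41.7 in the 24 h lists and 37.8 to 38.2 in the 2 h lists, also had every 24 h list higher (by 2.58 points). The share of plus-strand peaks differed the other way. On the 2 sequences together it was 48.6% ± 1.24 in the 24 h lists and 52.3% ± 0.198 in the 2 h lists (SD, n = 3 each), without overlap between the times, a difference of -3.65 points, with -3.02 on NC_049740.1 and -4.22 on NC_049738.1. On the others it averaged 50.1% at 24 h and 49.8% at 2 h. NC_049736.1 and NC_049739.1 together had 50.7% to 51.0% at 24 h and 51.7% to 53.0% at 2 h, also without overlap (-1.35 points), so neither direction was seen on the 2 sequences alone. These differences between sets of sequences were not tested, since the contrast of 24 h with 2 h chose the sequences.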

How the results depend on the processing

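Of 146 alternative values, 73 were the same as the main value. For tested differences this meant the same direction and call, and for other values staying within a set range. The rest were 36 with the call lost, 29 moved out of the range, 7 reversed in direction and 1 with a call gained. The 29 include the differences by peaks overlapped, whose percent points were set against a range of the Jaccard index. With 1 list left out or with the replicate block, no difference could keep its call, since the smallest p allowed exceeds 0.05. The share of 24 h-only loci on the 2 sequences was below that of the others in every setting but the stronger 50% of each list, where it was 17.2%. It was 15.8% with presence in at least 2 of 3 lists (19.4% on the others), 11.3% in the stronger 50% of each sequence's own peaks (an alternative chosen after seeing the data) and 6.30% to 10.3% with 1 list left out. The 17 such loci became 26 with joining under 500 bases, 11 under 10000 bases, 57 with 2 of 3 lists and 22 to 36 without 1 list. The 1209 on the others became 1688, 788, 2015 and 1288 to 1639. The 4 loci of 2 h only became 8 in the stronger 50%, 9 in lists of equal length, 9 without 75-base peaks, 8 with spans up to 1000 bases, 17 and 0 with joining under 500 and 10000 bases, 21 with 2 of 3 lists, and 6 to 14 without 1 list. The 92 on the others became 129, 128, 127, 126, 316, 24, 243 and 139 to 203, in the same order.

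Leaving out 1 list kept the sign of the 5 differences that passed, at -38.1 to -35.5 peaks per megabase, 2.00 to 2.86 points of 75-base peaks, 6.89 to 7.11 points of peaks over 1000 bases, -19.8 to -19.0 percentile points and -1.76 to -1.59 peaks per shared locus. The 5 remaining lists allow no p under 0.0625. With the replicate block the differences stayed at -36.7, 2.44, 7.00, -19.4 and -1.73, with the smallest p that 3 numbers allow, 0.25. The share of 75-base peaks was -1.60 points in the stronger 50% and 2.46 on NC_049740.1 alone (exact sign-flip p = 0.0625). The last-tenth difference was -2.37 in the stronger 50%, -0.711 in lists of equal length, -0.392 on NC_049740.1 alone, -0.268 against the mean over sequences, and 4.06 with joining under 500 bases (p = 0.03125, exact). Jaccard differences were 0.0039 (2 h pairs) and 0.0156 (between times) in the stronger 50%, -0.0546 (24 h pairs) in lists of equal length and -0.112 (between times) with spans up to 1000 bases. By peaks overlapped they were -11.4, -10.6 and -9.54 points, in the direction of the main values. Their scale is percent points, so leaving the range of the index followed from the unit. The cause of the other changes was not tested. Unknown read depth limits all counts of loci without a peak.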
